A study of Mus musculus with 6 samples.

Results

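Transcripts of neurons, astrocytes, oligodendrocytes and choroid plexus were followed in endothelial cells sorted from mouse brain tissue. The 33 genes were taken by symbol, and all 33 stood among the 24421 gene symbols of each library's file. They comprise 9 oligodendrocyte genes, 7 astrocyte genes, 14 neuron genes and 3 choroid plexus genes. The glioma group holds 3 libraries of endothelial cells sorted from gliomas of C57BL/6 mice, 3 weeks after GL26l glioma cells were injected into the brain. The normal group holds 3 libraries of endothelial cells sorted from normal brain of C57BL/6 mice. The markers used for the sort, the age and sex of the mice and the number of mice behind each library are not stated in the labels. The RNA sets are called independent in the design text, but no label ties a set to an animal of its own. The p-values below therefore reflect how far these libraries vary, and part of that variation can be technical. The study set tumor vessels against brain vessels, and the genes followed here were listed as neuron, astrocyte, oligodendrocyte or choroid plexus genes. Some are not confined to these cells: vascular cells can also use Gja1, and T cells and epithelia also make Mal. A value above 0 therefore does not by itself name the cell that made the RNA.

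Brain capillaries are wrapped by astrocyte end feet and run close to neurons and myelinating oligodendrocytes. Sorted vessel preparations can therefore carry RNA of these cells, either from attached fragments or from whole cells. Oligodendrocytes make the myelin sheath of axons, astrocytes line the vessel wall and take up ions and transmitters, and the choroid plexus secretes cerebrospinal fluid. In a bulk library, fewer cells of a type and less RNA per cell cannot be told apart.

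Values are given on the deposited log2 scale, read as log2(x + 1) of quantile-normalized values, where a gene without reads is listed at 0. The upper quartile over all genes was 8.18 in each of the 6 libraries, so a gene at that value stood at the same rank everywhere. Sequencing depth is unknown, because the files hold no counts and the summed values were made nearly equal. Genes above 0 numbered 13108, 10954 and 10013 in glioma replicates 1, 2 and 3, and 7446, 11853 and 13072 in normal replicates 1, 2 and 3. The lowest value above 0 was 0.42, 3.82 and 5.22 in glioma replicates 1, 2 and 3, and 7.43, 2.84 and 0.22 in normal replicates 1, 2 and 3. A 0 in normal replicate 1 thus covers values that other libraries list as anything up to 7.43, and 7.43 is used below as a shared floor. Endothelial identity was clear in every library: all 21 pan-endothelial markers lay above 0 in each, with medians of 13.37, 14.27 and 13.89 in glioma replicates 1, 2 and 3, and 13.58, 14.65 and 14.60 in normal replicates 1, 2 and 3.

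Neural and glial transcripts were unevenly spread over the libraries, and the unevenness ran within the groups as well as between them. Of the 33 genes, 27, 18 and 16 were above 0 in glioma replicates 1, 2 and 3, and 11, 30 and 31 in normal replicates 1, 2 and 3. Over all 24421 genes, the share above 0 was 53.7%, 44.9% and 41.0% in glioma replicates 1, 2 and 3, and 30.5%, 48.5% and 53.5% in normal replicates 1, 2 and 3, so the libraries with fewest genes in all also had the fewest of these. Only values above 7.43 can be compared across all 6 libraries, and by that measure the counts were 18, 6 and 11 in glioma and 11, 13 and 15 in normal replicates 1, 2 and 3. Counted this way, glioma replicate 1 held the most of these genes and glioma replicate 2 the fewest. Of all genes, 30.5% lay at or above 7.43 in normal replicate 1, and that share was not taken in the other libraries. No library exceeded 7.43 for 9 of the 33 genes, among them Mog, Mobp, Olig1, Olig2, Gfap and Snap25, which are defining genes of their cell types. The like share over all 24421 genes was not taken. Of the 11862 genes that entered the limma fit described below, 1522 exceeded 7.43 in no library. Of the 25 listed genes in that fit, 3 did not exceed it either (Snap25, Syp and Eno2). No trait of the 33 genes is read from these counts. The full set of values is shown in the heat map of genes by library.

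**Figure D1:**
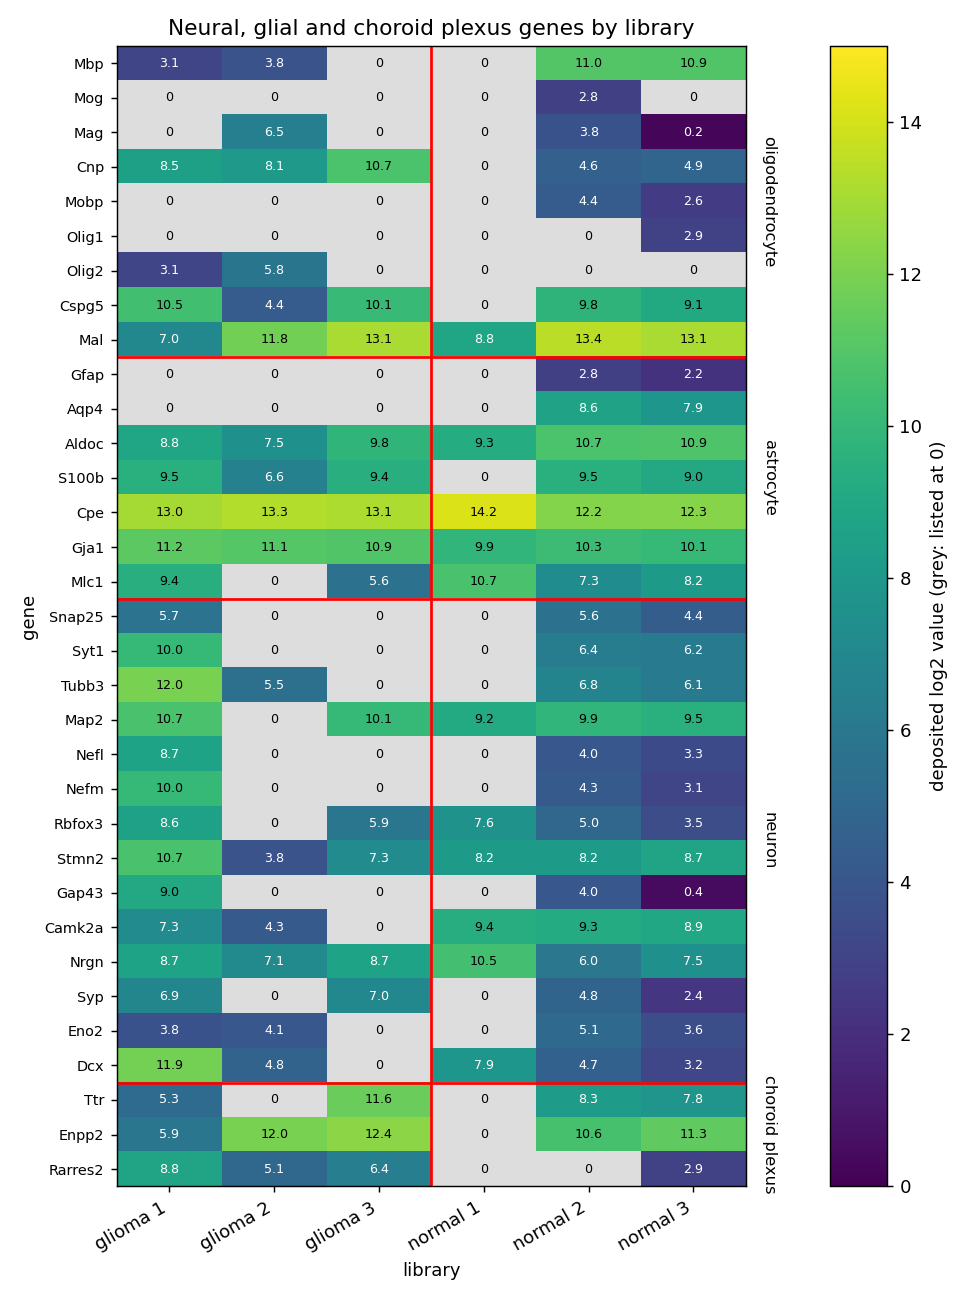
Deposited log2 value of each of the 33 genes (rows, by class) in the 3 glioma and 3 normal libraries (columns), with grey for genes listed at 0. Neuron genes are above 0 throughout glioma replicate 1 and normal replicates 2 and 3, while normal replicate 1 has 11 of 33 genes above 0.

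The start regions of the genes that the results turn on most are given here, because Cnp lay higher in every glioma library and Tubb3 and Dcx led the neuron genes of glioma replicate 1. Each window runs from 250 bases before to 50 bases after an annotated start, 5′ to 3′ on the gene's strand, from RefSeq on build GRCm38.p6. Of the 33 genes, 19 had a window in that set, and Dcx has 2, of which the first listed is shown. Capitals mark exact matches, on either strand, to the GC box GGGCGG, the CCAAT box CCAAT or the TATA box TATAAA, which are common core promoter elements. The Cnp window is chr11:100574689-100574988 (plus strand), that of Tubb3 is chr8:123411303-123411602 (plus strand) and that of Dcx is chrX:143933170-143933469 (minus strand).
Cnp: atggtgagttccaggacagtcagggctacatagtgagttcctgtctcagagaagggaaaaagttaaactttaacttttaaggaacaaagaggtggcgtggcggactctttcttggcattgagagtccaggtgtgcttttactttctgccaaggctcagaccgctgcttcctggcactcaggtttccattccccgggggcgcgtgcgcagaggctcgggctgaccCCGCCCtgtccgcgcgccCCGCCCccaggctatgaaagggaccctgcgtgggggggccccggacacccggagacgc
Tubb3: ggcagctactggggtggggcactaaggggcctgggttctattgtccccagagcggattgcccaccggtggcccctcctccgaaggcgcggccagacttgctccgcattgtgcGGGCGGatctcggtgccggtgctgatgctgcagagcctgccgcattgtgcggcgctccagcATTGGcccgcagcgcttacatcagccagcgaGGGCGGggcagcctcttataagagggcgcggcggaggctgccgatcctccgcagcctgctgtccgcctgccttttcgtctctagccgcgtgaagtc
Dcx: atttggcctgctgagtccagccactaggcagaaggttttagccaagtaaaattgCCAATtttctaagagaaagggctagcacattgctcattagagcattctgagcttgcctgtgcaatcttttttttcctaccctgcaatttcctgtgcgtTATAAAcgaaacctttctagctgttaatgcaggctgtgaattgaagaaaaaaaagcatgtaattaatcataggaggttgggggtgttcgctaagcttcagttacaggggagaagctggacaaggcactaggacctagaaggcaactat
The Cnp window held 2 GC boxes, the Tubb3 window 2 GC boxes and 1 CCAAT box, and the Dcx window 1 CCAAT box and 1 TATA box. Over all 32851 windows of this length, 35.7% held a GC box, 37.4% a CCAAT box and 13.6% a TATA box. A match describes the letters only.

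None of the 33 genes passed the comparison of glioma with normal endothelium. In the limma fit over all 11862 genes tested, 0 genes (0.0%) had a Benjamini-Hochberg adjusted p under 0.05, and the smallest adjusted p was 0.875. At an unadjusted p under 0.05, the fit gave 509 genes, 2.35% of genes higher and 1.94% lower in glioma. Of the 33 genes, 25 passed the filter on low values and entered that fit, and 2 were higher (Cnp and Rarres2) and 1 lower (Camk2a) in glioma at that unadjusted level. Groups did not overlap for 4 of the 33 genes. Cnp, Gja1 and Rarres2 were higher in each glioma library than in any normal library, which is 3 of the 25 genes in the fit (12%), against 6.91% of all genes tested. Camk2a was lower in each glioma library (1 of 25, 4%), against 6.37% of all genes tested. Nothing is read from shares that rest on so few genes. With 3 libraries against 3, an exact two-sided permutation test cannot give a p under 0.10. The median difference over the 33 genes was 0.18, and 0.05 over all genes tested. These counts depend on single libraries. Without glioma replicate 2, 6 of the 25 genes (24%) lay wholly above, against 11.5% of all genes tested. Without normal replicate 1, 3 of the 25 (12%) lay wholly below, against 20.7% of all genes tested. Without glioma replicate 1, 4 lay wholly above (16%, against 15% of all genes tested) and 3 wholly below (12%, against 12.1%). Without glioma replicate 3, 3 lay wholly above (12%, against 12.4%) and 2 wholly below (8%, against 10%).

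**Figure D2:**
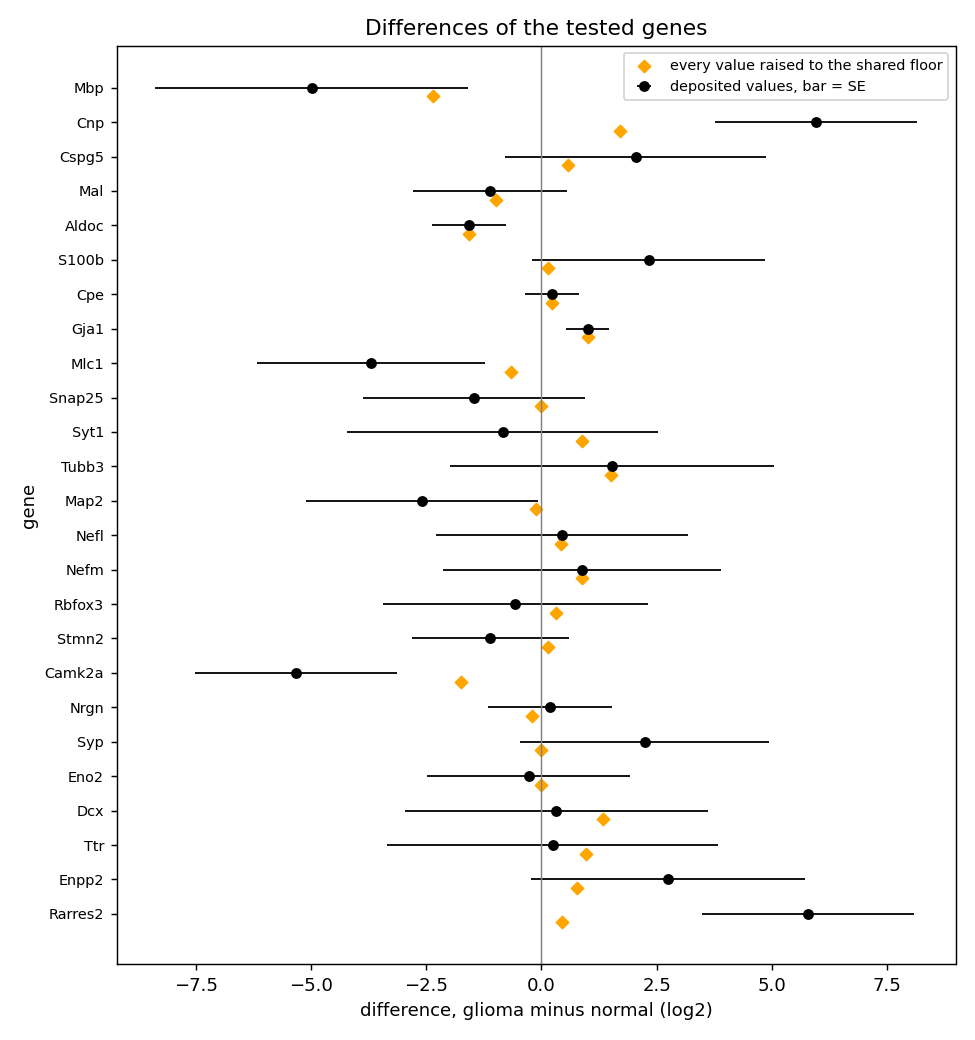
Difference of group means, glioma minus normal (log2, horizontal axis), for the 25 tested genes, with bars of 1 SE from limma and orange diamonds for the same difference once values under the shared floor of 7.43 were raised to it. Cnp (5.96), Rarres2 (5.78) and Camk2a (-5.33) lie farthest from 0, and their diamonds lie at 1.71, 0.44 and -1.74.

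Neuron genes stood out in glioma replicate 1. That library had all 14 neuron genes above 0, as did normal replicates 2 and 3. Over all genes, the share above 0 was 53.7% in glioma replicate 1 and 48.5% and 53.5% in normal replicates 2 and 3. For 10 of the 14, glioma replicate 1 held the highest value of the 6 libraries. The share of all genes highest in that library was not taken, so this count describes the 14 neuron genes only. Their summed level, per 1000000 of a library's summed back-transformed values (ppm), was 899.7 in glioma replicate 1, 15.2 in glioma replicate 2 and 107.1 in glioma replicate 3, against 203.9, 134.1 and 118.8 in normal replicates 1, 2 and 3. Glioma replicate 1 thus lay 4.41-fold above the next highest library, a normal one, while the other glioma libraries lay below all normal libraries. The median difference over the neuron genes was -0.05. It was -2.47 without glioma replicate 1, 0.85 without glioma replicate 2, 0.93 without glioma replicate 3 and 0.23 with the shared floor, so its sign depended on the library left out.

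Tubb3 and Dcx were the highest neuron genes of that library. Tubb3, the neuronal class of beta-tubulin, was at 11.98, 5.53 and 0 in glioma replicates 1, 2 and 3, against 0, 6.76 and 6.14 in normal replicates 1, 2 and 3. Dcx, the doublecortin gene of migrating young neurons, was at 11.89, 4.78 and 0 in glioma and at 7.85, 4.68 and 3.17 in normal replicates 1, 2 and 3. Both genes were highest in glioma replicate 1 by more than 4 log2 units and at 0 in glioma replicate 3, so the groups overlapped. Stmn2, a tubulin-binding protein of growing axons, was at 10.69, 3.82 and 7.25 in glioma and at 8.19, 8.16 and 8.74 in normal libraries. Gap43, a growth cone protein, was at 9.05, 0 and 0 in glioma and at 0, 4.04 and 0.42 in normal libraries. The neurofilament genes Nefl and Nefm, whose annotated spans overlap on opposite strands, stood at 8.70 and 10.03 in glioma replicate 1. Both were at 0 in the other glioma libraries and in normal replicate 1, and both lay between 3.14 and 4.26 in normal replicates 2 and 3.

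Camk2a, Nrgn, Syp and Eno2 were the neuron genes whose highest value stood in another library. Camk2a, a kinase subunit of excitatory synapses, was at 7.26, 4.26 and 0 in glioma replicates 1, 2 and 3, against 9.35, 9.25 and 8.91 in normal replicates 1, 2 and 3. Every glioma library lay below every normal library, and the difference was -5.33 (SE 2.19, limma adjusted p = 0.875, exact permutation p = 0.10, the smallest possible). With the shared floor the Camk2a difference was -1.74. Nrgn, a calmodulin-binding protein of dendritic spines, averaged 8.18 ± 0.90 in glioma and 8.003 ± 2.32 in normal libraries (SD, n = 3 each), with its highest value, 10.53, in normal replicate 1. Map2, a dendritic microtubule protein, was at 10.67, 0 and 10.07 in glioma and at 9.15, 9.86 and 9.50 in normal libraries. Its single 0, in glioma replicate 2, set the sign of its difference of -2.59, which was 0.87 without that library.

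The other synaptic and neuronal genes were low in most libraries. Syt1, the calcium sensor of vesicle release, was at 10.04 in glioma replicate 1 and at 0 in glioma replicates 2 and 3, against 0, 6.38 and 6.19 in normal replicates 1, 2 and 3. Snap25, a SNARE protein of the presynapse, reached at most 5.69 in glioma and 5.61 in normal libraries. Syp, a synaptic vesicle protein, reached 7.01 in glioma and 4.81 in normal libraries, and Eno2, the neuronal enolase, 4.07 in glioma and 5.10 in normal libraries. Rbfox3, which encodes the nuclear protein NeuN, was at 8.57, 0 and 5.88 in glioma and at 7.65, 4.97 and 3.52 in normal libraries. Snap25, Syp and Eno2 never exceeded the shared floor, so their differences rest on values that normal replicate 1 could not show.

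A further list of 31 neuron genes gave the same order of libraries. Its summed level was 2794 ppm in glioma replicate 1, 105.8 and 127.7 in glioma replicates 2 and 3, and 525.7, 262.9 and 204.7 in normal replicates 1, 2 and 3, so glioma replicate 1 lay 5.32-fold above the next. Above 0 were 27, 13 and 11 of the 31 genes in glioma replicates 1, 2 and 3, against 11, 31 and 30 in normal replicates 1, 2 and 3. Above the shared floor were 17, 4 and 3 in glioma and 9 in each normal library. Of its 31 genes 25 were tested, and 0 passed the limma threshold. The 4 highest on average were Uchl1, Meg3, Chn1 and Elavl3. Uchl1, a neuronal deubiquitinase, was at 12.39, 7.77 and 8.84 in glioma replicates 1, 2 and 3, against 11.89, 7.71 and 7.98 in normal replicates 1, 2 and 3. Meg3, an imprinted long noncoding RNA, was at 12.77, 9.17 and 7.32 in glioma and at 7.85, 9.23 and 9.20 in normal libraries. Elavl3, a neuronal RNA-binding protein, was at 10.97, 5.600 and 6.38 in glioma and at 7.54, 6.96 and 5.80 in normal libraries. Chn1, a neuronal regulator of the GTPase Rac, was at 10.26, 7.42 and 8.57 in glioma and at 10.33, 9.31 and 8.76 in normal libraries. Basp1, a growth cone protein chosen after its values were seen, was the highest of the list in glioma replicate 1, at 13.14, 7.44 and 7.40 in glioma and 0, 4.51 and 3.41 in normal libraries.

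Other transcripts moved with the neuron genes in glioma replicate 1, and their part in that pattern was not tested. The 21 pan-endothelial markers summed to 19900 ppm there, against 39803 and 38154 in glioma replicates 2 and 3 and 36008, 43580 and 43990 in normal replicates 1, 2 and 3. All 6 erythroid markers were above 0 there and summed to 24231 ppm, against 5419 and 821 in glioma replicates 2 and 3 and 887, 3330 and 2911 in normal replicates 1, 2 and 3, though Hba-a1 and Hba-a2 are near-identical copies with equal values. Fibroblast markers were above 0 for 8 of 10 genes, with a sum of 219.9 ppm against 3.53 to 41.3 in the other libraries. Sox11, a transcription factor of neural progenitors and young neurons that was chosen after its values were seen, was at 13.89, 6.13 and 7.58 in glioma and at 0, 2.84 and 1.12 in normal libraries. The list of 11 neural progenitor and glioma genes had 10, 8 and 8 members above 0 in glioma and 5, 7 and 9 in normal replicates 1, 2 and 3. Its highest gene was Sox11 in glioma replicate 1 and Prom1 in each other library. Prom1 was at 13.59, 14.82 and 14.54 in glioma and 13.48, 15.65 and 15.52 in normal libraries. The next highest of that list on average were Vim, Sox4 and Nes, with values of 9.53 to 14.39 in glioma and 9.73 to 12.16 in normal libraries. Groups overlapped for Prom1, Vim, Sox4 and Nes. Of the 8 genes of the list that were tested, 0 passed the limma threshold. Wholly above normal lay 3 of the 8, Sox11 among them, against 6.91% of all genes tested. No reading is drawn from so few genes.

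**Figure D3:**
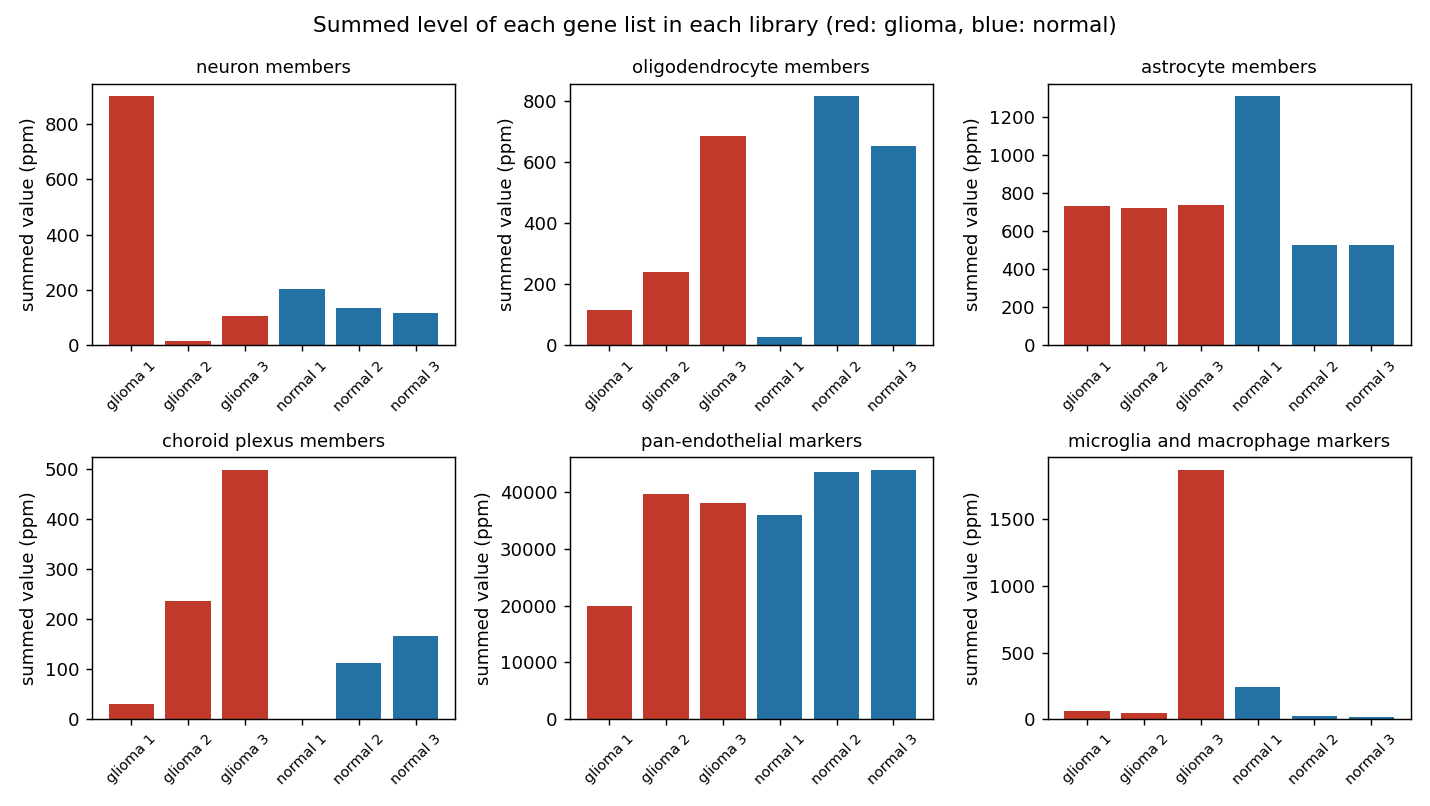
Summed back-transformed value in parts per 1000000 of each library's total (ppm) (vertical axis, from 0) for the 4 gene classes, for pan-endothelial markers and for microglia and macrophage markers, in glioma (red) and normal (blue) libraries. Neuron genes peak in glioma replicate 1 (899.7 ppm), where the pan-endothelial sum is lowest (19900 ppm).

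Oligodendrocyte genes split by gene rather than by group. Mbp, the myelin basic protein gene, was at 3.12, 3.82 and 0 in glioma replicates 1, 2 and 3, against 0, 10.96 and 10.94 in normal replicates 1, 2 and 3. It was high in a pair of normal libraries, low in a pair of glioma libraries and at 0 in 1 library of each group, so the groups overlapped (difference -4.99, SE 3.40, limma adjusted p = 0.875). Without normal replicate 1 the difference was -8.64, and with the shared floor -2.35, neither past the threshold. Cnp, which encodes a myelin-associated phosphodiesterase, had the opposite order of groups.

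Cnp was at 8.53, 8.13 and 10.74 in glioma replicates 1, 2 and 3, against 0, 4.62 and 4.90 in normal replicates 1, 2 and 3. All glioma libraries lay above all normal libraries, by a difference of 5.96 (SE 2.19, limma adjusted p = 0.875, exact permutation p = 0.10). The Cnp difference was 4.37 without normal replicate 1 and 1.71 with the shared floor. Cnp (chromosome 11, 100574904 to 100591729, plus strand) overlaps Dnajc7 on the opposite strand over 8912 bases in GENCODE M21 on GRCm38. Dnajc7 was at 12.87, 11.88 and 10.55 in glioma and at 11.68, 11.10 and 11.41 in normal libraries, a different order from that of Cnp. The sources used here do not say whether the counting used strand, so Cnp values are uncertain to that extent.

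Mog, Mobp, Mag, Olig1 and Olig2 stayed under the shared floor in every library. Mog, a surface protein of the myelin sheath, was listed above 0 in normal replicate 2 alone, at 2.84. Mobp, a basic protein associated with myelin, was at 0 in the 3 glioma libraries and at 0, 4.37 and 2.58 in normal libraries. Mag, the myelin-associated glycoprotein, was at 0, 6.48 and 0 in glioma and at 0, 3.77 and 0.22 in normal libraries. The lineage transcription factors were as sparse. Olig2 was at 3.12, 5.82 and 0 in glioma and at 0 in all normal libraries, while Olig1 was at 0 in all glioma libraries and above 0 in normal replicate 3 alone, at 2.94.

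Mal was the highest gene of this class in every library other than glioma replicate 1, where Cspg5 was highest, and neither gene is confined to oligodendrocytes. Mal, a raft proteolipid of myelin that is also made by T cells and epithelia, averaged 10.65 ± 3.20 in glioma and 11.77 ± 2.56 in normal libraries (SD, n = 3 each). Its values were 7.03, 11.83 and 13.10 in glioma and 8.82, 13.42 and 13.07 in normal libraries, so replicate 1 of each group was low and the other 4 were high. Cspg5, a neural chondroitin sulfate proteoglycan, was at 10.49, 4.38 and 10.14 in glioma and at 0, 9.77 and 9.11 in normal libraries. Mal held 75.6% to 100% of the summed level of the class in every library other than glioma replicate 1, where Cspg5 held 73.6%. The class summed to 114.7, 241.2 and 684.0 ppm in glioma and to 27.0, 816.0 and 654.2 ppm in normal replicates 1, 2 and 3. Without Mal the sums were 107.1, 26.8 and 167.3 in glioma and 0, 172.0 and 149.7 in normal libraries, and the order of the libraries changed with that omission. The median difference over the class was -0.95, and 0 with the shared floor. It was 0.70 without glioma replicate 1 and 0 without normal replicate 2 or normal replicate 3.

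Among 21 further oligodendrocyte genes, 10 were tested and 0 passed. Of the 10, 1 lay wholly lower in glioma (10%), against 6.37% of all genes tested. Over the 21 genes, the glioma mean was lower for 13 and higher for 5. Their median difference was -0.81, and 0 with the shared floor, against 0.05 over all genes tested. Car2, a carbonic anhydrase, Nkx6-2, a homeobox factor, and Trf, the transferrin gene, were among the highest of that list, and their groups overlapped, at 6.82 to 11.13 in glioma and 5.02 to 10.65 in normal libraries. Of 8 precursor genes, 6, 3 and 2 were above 0 in glioma and 1, 4 and 5 in normal replicates 1, 2 and 3, and 0 of the 5 tested passed. The transcription factor gene Sox6 was at 11.04, 10.95 and 0 in glioma and at 0, 4.13 and 0.58 in normal libraries. Pdgfra, a growth factor receptor that fibroblasts also carry, was at 8.01, 7.67 and 0 in glioma and at 0, 0 and 1.58 in normal libraries. Cspg4, which pericytes also make, was at 4.17, 8.36 and 7.31 in glioma and at 8.72, 8.47 and 8.31 in normal libraries. Ptprz1, a receptor phosphatase, was at 3.81, 0 and 5.97 in glioma and at 0, 0 and 2.27 in normal libraries.

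Some astrocyte genes were listed in normal replicates 2 and 3 alone, and others in all libraries. Aqp4, the water channel of astrocyte end feet, was at 0 in all glioma libraries and at 0, 8.63 and 7.88 in normal replicates 1, 2 and 3. Gfap, the astrocyte intermediate filament, was likewise at 0 in all glioma libraries and at 0, 2.84 and 2.17 in normal libraries. With 4 libraries at 0, neither gene passed the filter of the limma fit, and the exact two-sided permutation p was 0.40 for each. S100b, a calcium-binding protein of astrocytes and oligodendrocytes, was at 9.55, 6.57 and 9.38 in glioma and at 0, 9.50 and 9.03 in normal libraries. Mlc1, a membrane protein of perivascular end feet, was at 9.42, 0 and 5.600 in glioma and at 10.67, 7.27 and 8.19 in normal libraries. Mlc1 and Aqp4, both end foot genes, were not ordered alike, since normal replicate 1 had the highest Mlc1 value and no Aqp4.

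Gja1, Cpe and Aldoc were above 0 in all 6 libraries. Gja1, the connexin gene of astrocyte gap junctions that vascular cells can also use, was at 11.22, 11.07 and 10.91 in glioma and at 9.85, 10.27 and 10.08 in normal libraries. It averaged 11.07 ± 0.16 in glioma and 10.07 ± 0.21 in normal libraries (SD, n = 3 each), a difference of 1.00 (SE 0.47, limma adjusted p = 0.875, exact permutation p = 0.10). The Gja1 groups did not overlap, its spread within groups was the smallest of the 4 separated genes, and its difference was still 1.00 with the shared floor and 1.44 after scaling to the endothelial markers, where the median of all genes tested was 0.48. Aldoc, the brain aldolase, averaged 8.72 ± 1.16 in glioma and 10.29 ± 0.88 in normal libraries (difference -1.57, SE 0.81, limma adjusted p = 0.875), with overlapping groups. Cpe, carboxypeptidase E of prohormone processing, averaged 13.13 ± 0.14 in glioma and 12.91 ± 1.12 in normal libraries (difference 0.23, SE 0.59, limma adjusted p = 0.949). Cpe was at 14.20 in normal replicate 1, against 12.23 and 12.29 in normal replicates 2 and 3, and its difference turned negative without normal replicate 2 (-0.11) or normal replicate 3 (-0.08).

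Cpe also set the summed level of the astrocyte class, with 53.3% to 85.6% of it. The class summed to 731.5, 722.0 and 739.2 ppm in glioma and to 1310, 530.1 and 529.0 ppm in normal replicates 1, 2 and 3. Without Cpe the sums were 251.4, 142.7 and 208.8 in glioma and 189.1, 247.5 and 234.3 in normal libraries, and the high normal replicate was no longer apart. The median difference over the 7 genes was -1.57, and 0 with the shared floor.

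Among 21 further astrocyte genes, 19 were tested and 0 passed. Of the 19, 4 lay wholly lower in glioma (21.1%), against 6.37% of all genes tested. This share rests on few genes and was not taken with single libraries left out, so no reading is drawn from it. The 4 do not include Apoe, Glul or Slc1a2, whose groups overlapped. The list had 15, 13 and 16 members above 0 in glioma and 13, 20 and 20 in normal replicates 1, 2 and 3. Apoe, an apolipoprotein of astrocytes and macrophages, was at 13.89, 12.98 and 15.31 in glioma and at 13.78, 13.22 and 13.15 in normal libraries, with its peak in glioma replicate 3. Microglia and macrophage markers summed to 57.7, 48.4 and 1872 ppm in glioma and to 241.9, 20.3 and 17.8 ppm in normal replicates 1, 2 and 3, so the Apoe peak stood in the library where those markers peaked, and their part in it was not tested. Cx3cr1 and C1qa were among the highest of these markers, C1qa at 5.25, 6.78 and 11.69 in glioma and 9.79, 3.42 and 0.22 in normal libraries. Glul, glutamine synthetase, averaged 12.77 ± 0.84 in glioma and 12.61 ± 1.21 in normal libraries, and Slc1a2, a glutamate transporter, 12.31 ± 1.77 in glioma and 12.47 ± 0.68 in normal libraries (SD, n = 3 each).

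**Figure D4:**
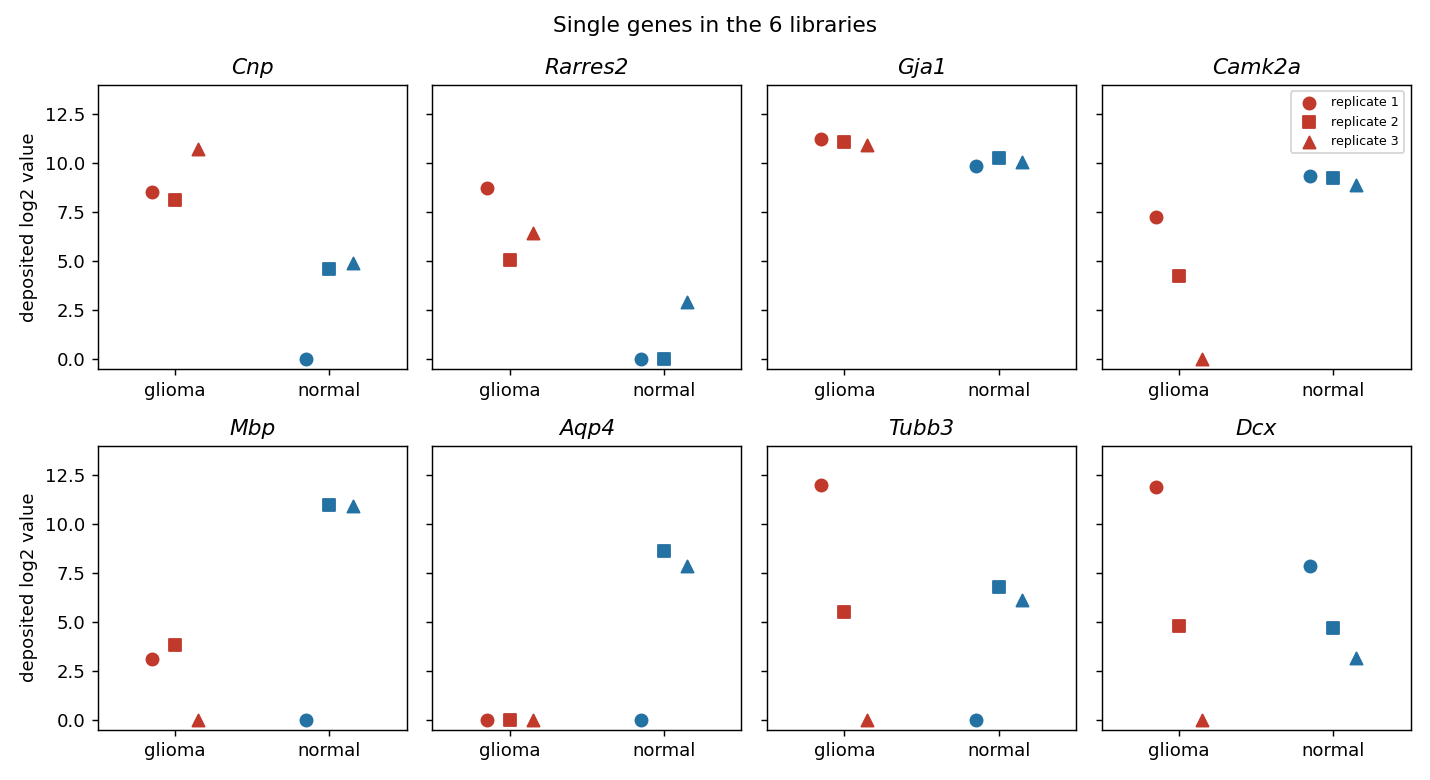
Deposited log2 value of 8 genes in each library (vertical axis), glioma in red and normal in blue, with the marker shape giving the replicate number. Cnp, Rarres2 and Gja1 lie higher and Camk2a lower in all glioma libraries, Mbp and Aqp4 are high in normal replicates 2 and 3, and Tubb3 and Dcx are highest in glioma replicate 1.

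All 3 choroid plexus genes were listed at 0 in normal replicate 1. Ttr, the thyroxine carrier that the choroid plexus secretes in large amounts, was at 5.25, 0 and 11.58 in glioma replicates 1, 2 and 3, against 0, 8.32 and 7.79 in normal replicates 1, 2 and 3. Enpp2, the secreted lysophospholipase autotaxin that oligodendrocytes also make, was at 5.89, 11.96 and 12.37 in glioma and at 0, 10.65 and 11.34 in normal libraries. In both genes the groups overlapped, and the highest value stood in glioma replicate 3. Rarres2, the gene of the chemoattractant chemerin, was at 8.75, 5.06 and 6.43 in glioma and at 0, 0 and 2.91 in normal libraries. For Rarres2 each glioma value exceeded each normal value (difference 5.78, SE 2.29, limma adjusted p = 0.875, exact permutation p = 0.10). With the shared floor the Rarres2 difference was 0.44, since only glioma replicate 1 exceeded 7.43. Rarres2 (chromosome 6, 48569696 to 48572789, minus strand) overlaps Lrrc61 on the opposite strand over 1027 bases. Lrrc61 was at 10.39, 6.26 and 9.40 in glioma and at 10.72, 7.69 and 7.80 in normal libraries, with overlapping groups.

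The summed level of the choroid plexus genes was 31.0, 235.4 and 498.0 ppm in glioma and 0, 113.0 and 166.0 ppm in normal replicates 1, 2 and 3, and Enpp2 held most of it in each library above 0 other than glioma replicate 1. The median difference of the 3 genes was 2.74. It was 0.78 with the shared floor, 1.07 with 64 in place of 1 added before the log, 4.77 without glioma replicate 1 and -0.92 without normal replicate 1. Of 19 further choroid plexus and ependyma genes, 10, 3 and 3 were above 0 in glioma and 3, 5 and 7 in normal replicates 1, 2 and 3, and 5 were at 0 in every library. The highest of them were Aqp1, Igfbp2, Prlr and Clic6. Igfbp2, a growth factor binding protein, was at 11.91, 0 and 0 in glioma and at 10.31, 4.04 and 5.34 in normal libraries. Aqp1, a water channel of the plexus epithelium and of other endothelia, was at 7.11, 8.50 and 6.50 in glioma and at 8.37, 0 and 2.62 in normal libraries. Prlr and Clic6 stayed at or under 6.68 in every library. The Ttr peak stood in glioma replicate 3, where 3 of the 19 further genes were above 0. That count was also 3 in glioma replicate 2 and normal replicate 1, where Ttr was at 0, but the lowest values listed differ between these libraries. Over all genes, 41.0%, 44.9% and 30.5% were above 0 in glioma replicate 3, glioma replicate 2 and normal replicate 1. Above the shared floor, the counts of the 19 genes in those libraries were 0, 1 and 3. The part of choroid plexus cells in the Ttr values was not tested.

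Normal replicates 2 and 3 listed mostly the same genes above 0. Both had 29 of the 33 above 0 in common, with a median absolute difference between the libraries of 0.67. Their difference was largest for Gap43, at 3.63. This measure was not taken for other pairs of libraries or over all genes. Normal replicate 1 had 11 of the 33 above 0, of which Cpe, Mlc1, Nrgn, Gja1 and Camk2a were the highest. The normal group therefore did not give a single level for most of these genes, and a difference from it depends on which normal libraries are counted. Without normal replicate 1, 6 of the 33 genes lay wholly lower in glioma: Mbp, Mobp, Gfap, Aqp4, Aldoc and Camk2a. Mbp, Aldoc and Camk2a were in the limma fit (3 of 25, 12%), where 20.7% of all genes tested lay wholly lower.

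Markers of other cell types were also present in part. Pericyte and smooth muscle markers had 9, 11 and 10 of 12 above 0 in glioma and 10, 12 and 12 in normal replicates 1, 2 and 3, with sums of 615.1 to 1029 ppm in glioma and 391.5 to 1296 in normal libraries. The highest were Rgs5, Abcc9 and Acta2, at 8.19 to 13.14 in glioma and 9.04 to 13.47 in normal libraries. All 4 B cell markers were at 0 in every library, and of 5 measured T and NK cell markers only Cd3d was above 0, at 3.82 in 1 glioma library and at 7.67, 4.88 and 3.25 in normal libraries. Granulocyte markers summed to 520.4 ppm in glioma replicate 1, where S100a9 was at 12.84, and to at most 4.49 ppm in the other 5 libraries. Platelet markers summed to 202.5, 29.8 and 0 ppm in glioma and to 160.1, 27.0 and 19.3 ppm in normal replicates 1, 2 and 3. The part of these cells in the neural and glial values was not tested.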

How the data were processed

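RNA of sorted endothelial cells was measured in 6 libraries (3 glioma, 3 normal, grouped by title) with Lexogen QuantSeq, per the labels' protocols. This kit reads transcript ends, so length needs no correction. Per the submitters' processing notes, Bowtie2, edgeR and mm10 were used, with no role stated. How reads were counted and normalized is not given in the sources used here. The deposited values are log2; a shared maximum of 20.85 and back-transformed values within 0.02 of multiples of 1 divided by 6 are the form quantile normalization leaves.

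The fit used limma 3.58.1 (R 4.3.3; group as sole term, 4 residual degrees of freedom, mean trend in the prior) on genes that reached a back-transformed value of 1 in 3 libraries or more, with Benjamini-Hochberg adjustment over all of them and a threshold of 0.05. Differences are glioma minus normal, and those of low genes depend on the added 1. Where some libraries list a gene at 0, the difference can shrink with other settings. That of Rarres2 was 5.78 with the added 1, 1.54 with 64 in its place and 0.44 with the shared floor. Genes at 0 in a library are given per library, with no mean. Beyond the 33 genes, the 4 highest of each further list and the 3 highest of each marker list were named, except a few that are not reported here. Date-like numbers in column names are shared within groups only, so such a batch and the group cannot be told apart. Genes and lists were chosen with earlier results of these data known. The fit was tested on simulated, normally distributed values without genes listed at 0, so that test does not cover such genes. Other settings are given at the end.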

Additional observations from a re-analysis of the deposited data

How the results depend on the processing

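No gene of the 33 passed under any of the 13 other limma settings. Over all genes the count past the threshold was 0 in each, except 15 without the mean trend, none of them among the 33, and genes at an unadjusted p under 0.05 ranged from 233 to 1173. The replicate block gave 0 genes past the threshold and 610 at an unadjusted p under 0.05. Deviations of same-numbered libraries from their group means correlated at 0.13, 0.03 and 0.06, against -0.14 to 0.085 for libraries of different numbers. Whether same-numbered libraries were handled together was not tested. Scaling to the endothelial markers moved the median of all genes tested to 0.48. Of the 25 tested genes, 9 kept their direction, or lay at 0 difference, in each setting that gave a value for them, and 16 did not; the cause was not tested. The direction turned with an offset of 64 for Syt1 (0.61), Rbfox3 (0.30) and Nrgn (-0.0052), with the shared floor for Syt1 (0.87), Rbfox3 (0.31), Stmn2 (0.15) and Nrgn (-0.21), and with endothelial scaling for Eno2 (0.23).

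With each library left out in turn, differences (given with no test where a gene failed the filter) ranged from -1.10 to 4.02 for Cspg5, -2.59 to 0.70 for Mal, -0.76 to 3.98 for S100b, -0.11 to 0.87 for Cpe, -4.19 to 0.83 for Syt1, -1.53 to 4.46 for Tubb3, -4.47 to 0.87 for Map2, -2.46 to 1.88 for Nefl, -2.47 to 2.55 for Nefm, -2.44 to 1.84 for Rbfox3, -2.83 to 0.61 for Stmn2, -0.84 to 1.44 for Nrgn, -1.73 to 1.04 for Eno2, -2.84 to 3.10 for Dcx, -2.74 to 3.05 for Ttr and -0.92 to 4.83 for Enpp2. The astrocyte median was -0.0698 with an offset of 64 and 0 with the shared floor. Counting genes above the shared floor in place of above 0 gave 6 genes for glioma replicate 2, 13 for normal replicate 2 and 15 for normal replicate 3. In a setting added after the data were seen, the groups were compared for overlap with each library left out in turn. Of the 25 genes in the fit, 12% to 24% then lay wholly above, against 7.76% to 15% of all genes tested. Wholly below lay 4% to 12%, against 7.22% to 20.7% of all genes tested. Over all 33 genes, with those outside the fit, 3 to 6 lay wholly above and 1 to 6 wholly below. Depth is unknown, and values under 7.43 cannot be compared with normal replicate 1.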
